A study of Homo sapiens with 4 samples.

Results

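The exons described here are cassette exons of at least 52 and under 300 nt that lie between 2 introns of at least 10000 nt each. They were chosen by coordinates alone, from the exon length and the distances to both flanking exons in a table of cassette exon events, and events of the same exon were merged. This gave 1744 exons in 1201 genes, read in 2011 events, of the 27483 exons, 31408 events and 9172 genes of the whole table. The RNA came from 4 clones of HEK293T, a human embryonic kidney cell line: 2 wild-type (WT) clones and 2 clones labelled as RBFOX2 knockout. All 4 were grown from single sorted cells after transfection with the Cas9 plasmid PX459 and with guide RNAs on either side of RBFOX2, and were told apart by PCR genotyping, so each clone carries its own history of editing and outgrowth. Total RNA was depleted of ribosomal RNA and sequenced with strand-specific libraries, and the splicing comparison was made to find exons that respond to loss of RBFOX2.

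In long introns the splice sites of an exon are thought to be found as a pair across the exon (exon definition), whereas in short introns they can be paired across the intron. An exon between long introns therefore depends on its own splice sites and on enhancers and silencers in and near it. RBFOX2 is an RNA-binding protein that recognises GCATG, with U for T in RNA, mostly in introns beside alternative exons. By the usual map of RBFOX proteins, binding downstream of an exon favours its inclusion and binding upstream favours skipping.

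Each event of the authors' deposited table comes with an inclusion difference, a p-value, and an adjusted p-value given as a false discovery rate (FDR). Inclusion is the share of a transcript's splice junction reads that contain the exon, corrected for length, and runs from 0 to 1. The difference is that of a first set of 2 libraries minus a second set of 2 libraries. The table does not say which set is WT and which is knockout. A positive difference is therefore reported only as higher inclusion in the first set, and no difference can be read as a gain or loss on knockout. RBFOX2 itself has 0 cassette exon events in the table, so its splicing cannot tell the sets apart. An exon was called when an event with both introns at least 10000 nt had an FDR under 0.05 and a difference of at least 0.1 in either direction.

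The sequences of 4 called exons that were fully coding and had a length divisible by 3 show what was skipped or included. Skipping such an exon removes whole codons and leaves the reading frame downstream. They are the exons with the lowest p-values of that kind, 2 in each direction. POC1A encodes a centriole protein, and its exon lies at chr3:52130585-52130728 on the minus strand (hg19). DLG1 encodes a membrane scaffold of cell junctions, and its exon lies at chr3:196888511-196888609 on the minus strand. SLAIN2 encodes a protein of growing microtubule ends, and its exon lies at chr4:48396593-48396670 on the plus strand. JMJD1C encodes a Jumonji-domain chromatin protein, and its exon lies at chr10:65024411-65024524 on the minus strand. The letters are those of GENCODE 29 transcripts, matched by exon and intron lengths and written 5′ to 3′ on the transcript strand.
POC1A: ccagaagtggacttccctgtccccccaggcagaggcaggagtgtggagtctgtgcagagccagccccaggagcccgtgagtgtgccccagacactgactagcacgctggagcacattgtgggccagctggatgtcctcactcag
DLG1: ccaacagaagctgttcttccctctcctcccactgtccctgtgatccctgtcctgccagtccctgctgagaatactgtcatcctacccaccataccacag
SLAIN2: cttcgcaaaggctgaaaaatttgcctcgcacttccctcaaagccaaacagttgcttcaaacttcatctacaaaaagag
JMJD1C: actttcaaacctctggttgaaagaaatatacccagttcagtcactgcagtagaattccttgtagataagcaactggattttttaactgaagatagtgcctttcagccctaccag

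The POC1A and DLG1 exons were included more in the first set, the SLAIN2 and JMJD1C exons more in the second. In the authors' deposited table the POC1A exon of 144 nt differed by 0.242 (FDR 4.03e-06) and the DLG1 exon of 99 nt by 0.334 (FDR 5.12e-06). The same table gave -0.208 for the SLAIN2 exon of 78 nt (FDR 1.22e-05) and -0.396 for the JMJD1C exon of 114 nt (FDR 4e-04). With an upstream partner 28400 nt away the POC1A exon had only 0.052. With a downstream partner 47319 nt away the JMJD1C exon had -0.5, and neither event met both limits. None of the 4 sequences holds GCATG. The DLG1 exon lies between introns of 32686 and 11843 nt.

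Of the 1744 exons between long introns, 115 were called, or 6.59% (Wilson 95% interval 5.52 to 7.86%, which covers counting error only). Over all exons of the authors' deposited table, where any event could make the call, it was 5.73%. With the call taken from any event on both sides, 124 of the 1744 were called (7.11%, 6 to 8.41%), against 1214 of the 22528 other exons of the same lengths (5.39%, 5.1 to 5.69%). The share was thus above that of other exons under the like rule. Exons listed in several events were called more often in both sets. Exons with a single event were called in 69 of 1390 cases (4.96%, 3.94 to 6.24%), against 4.32% of other exons with 1 event. Exons with 2 or more events were called in 55 of 354 cases (15.5%, 12.1 to 19.7%), against 13.8% of the others (350 of 2532), and both intervals hold the value for the other exons. The exons called from an event between long introns split evenly in direction. 57 exons (3.27%) were higher in the first set, against 3.08% of all exons, and 58 (3.33%) were higher in the second set, against 2.65% of all exons. The first set was thus the higher one in 49.6% of called exons (40.6 to 58.6%). Counted by event, 116 of 2011 events were called (5.77%, 4.83 to 6.87%), against 5.15% of all events. The called exons belong to 107 genes.

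Inclusion differences were wider among exons between long introns than in the table as a whole, and most of the wide ones were not called. The median absolute difference in the authors' deposited table was 0.077 for these exons and 0.048 over all exons. A difference of at least 0.1 in either direction was listed for 756 of the 1744 (43.3%), against 31.3% of all exons, and 641 of those 756 (84.8%) were not called. Differences of exactly 1 in size, the largest possible, were listed for 56 exons, and PCBP1-AS1 held the only one that was called. Another 70 exons had a difference of exactly 0.5 in size, of which 4 were called. A p-value of 1 was listed for 921 exons (52.8%, against 49.4% of all exons), and 239 had a p-value under 0.05. Signs were mixed, with 909 positive, 825 negative and 10 zero differences. Among called exons the median size was 0.3, against 0.271 over all called exons, and 19 of the 115 reached 0.5. How read depth moves with these values was not tested.

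**Figure D1:**
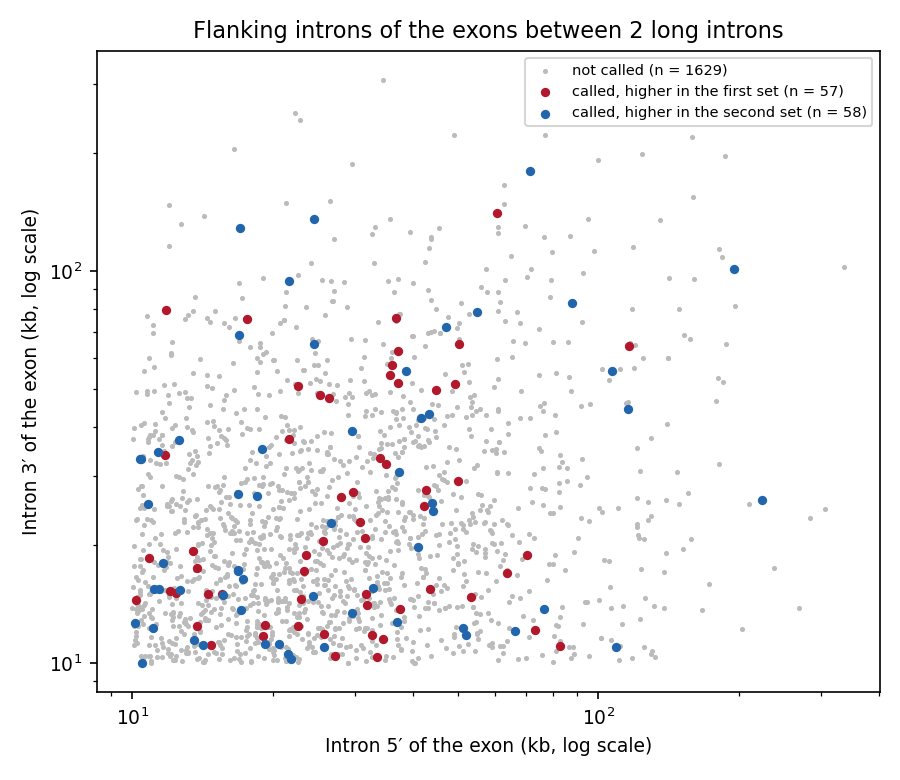
Length of the intron 5′ (x axis, kb, log scale) and 3′ (y axis, kb, log scale) of each of the 1744 exons, one point per exon, with the 57 exons called higher in the first set in red, the 58 called higher in the second set in blue and the rest in grey. Called exons of both directions are scattered among the rest, and the farthest points on both axes are grey.

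The introns, taken as the distances from an exon to the flanking exons of its event, ran far past the limit of 10000 nt. They need not be single introns. For 673 of the 1744 exons, every event with both introns at least 10000 nt had another listed exon of the gene within these distances. The intron 5′ of the exon had a median of 25605 nt (10010 to 336748 nt) and the intron 3′ of it a median of 21264 nt (10013 to 307584 nt). The 5′ intron was the longer of the pair in 1025 exons (58.8%). The shorter of the pair had a median of 16548 nt over all members, 17005 nt for exons called higher in the first set and 14968 nt for those called higher in the second. The 3 exons with the longest shorter intron were in NRXN3, a presynaptic adhesion receptor, in FHIT, a gene in a common fragile site, and in CAMKMT, a calmodulin methyltransferase. The NRXN3 exon of 182 nt lies between introns of 186682 and 196375 nt, and the authors' deposited table lists a difference of 0.357 for it at a p-value of 1. The FHIT exon of 53 nt (introns of 158519 and 220013 nt) has -0.05 and the CAMKMT exon of 174 nt (introns of 159249 and 154554 nt) has 0.055 in that table, each at a p-value of 1. None of the 3 was called.

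Events of the same exon length were then set out by the shorter intron, over the whole table. The share called was 4.45% where the shorter intron was under 300 nt, 5.04% from 300 to 1000 nt, 4.92% from 1000 to 5000 nt and 5.31% from 5000 to 10000 nt. It was 5.87% from 10000 to 20000 nt (73 of 1244 events, interval 4.69 to 7.32%), 5.19% from 20000 to 50000 nt (35 of 674, 3.76 to 7.14%) and 8.6% at 50000 nt or more (8 of 93, 4.42 to 16.1%). The intervals of the 3 longest classes overlap each other and the background of 5.15%. The share of events with a difference of at least 0.1 did climb from class to class, from 26.2% under 300 nt to 36.0% at 5000 to 10000 nt, 41.9%, 45.4% and 64.5%. The median absolute difference went from 0.038 in the shortest class to 0.167 in the longest. The share of events with a p-value of 1 was 52.3% in the shortest class and 59.1% in the longest.

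**Figure D2:**
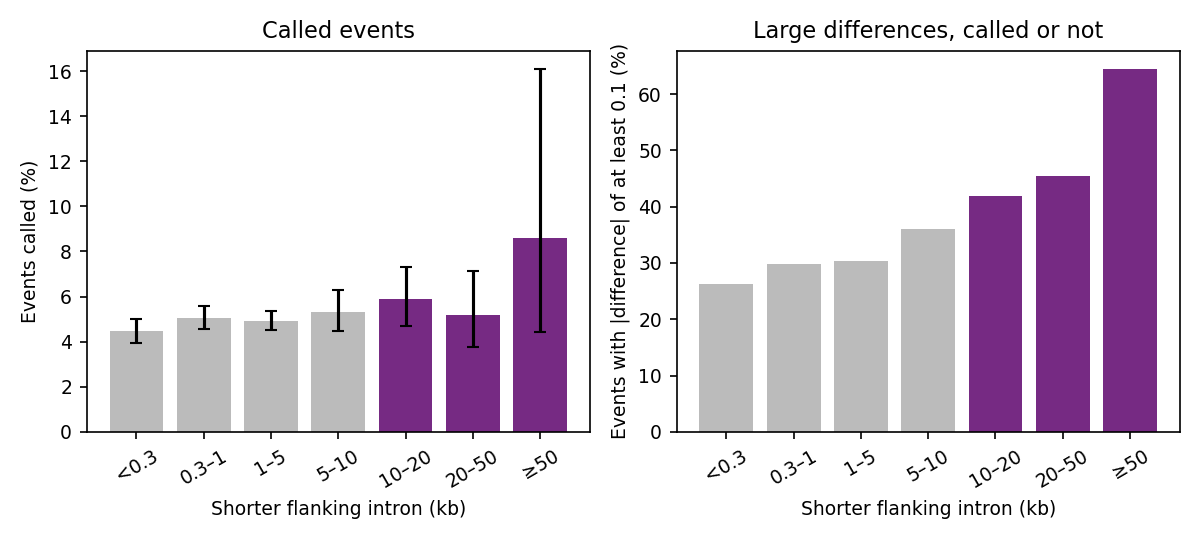
Percent of events called (left, error bars are Wilson 95% intervals) and percent of events whose inclusion differed by 0.1 or more in either direction, called or not (right), by the length of the shorter flanking intron in kb, for events of exons of at least 52 and under 300 nt. Purple bars hold the exons between long introns; the left panel runs from 4.45 to 8.6% with overlapping intervals in purple, while the right panel climbs from 26.2 to 64.5%.

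Exons close to the limit of 10000 nt had small and large differences on both sides of it. Just inside it were exons of C1orf159 (shorter intron 10010 nt), CDC42BPA, a kinase that acts with CDC42 (10013 nt), and REV1, a translesion DNA polymerase (10025 nt). Their differences in the authors' deposited table were -0.167, 0.001 and 0.334, and none was called. Just outside it were exons of LMBR1 (9998 nt), IL4R, the interleukin-4 receptor (9987 nt), and PPAPDC1A (9984 nt). Their differences there were 0.048, -0.528 and 0.198, and the IL4R exon met the FDR limit (0.0114).

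Exons between long introns were often early exons and often outside the coding sequence. Of the 1744, 1680 (96.3%) were matched to GENCODE 29 transcripts. Any event of an exon could give the match, so in the matched transcript the exon need not lie between long introns. How many matches rest on a shorter intron was not counted. The matched exons were fully coding in 972 cases (57.9%, against 65.9% of matched exons of the table), partly coding in 155, and 5′ untranslated in 255 (15.2%, against 8.01%). A further 114 (6.79%) occurred only in transcripts annotated for nonsense-mediated decay, the pathway that removes mRNAs with early stop codons, and 184 (11%) only in other noncoding transcripts. In 791 (47.1%, against 33.9% in the table) the exon was the second of a matched transcript, where the first intron lies upstream. The median GC content of the exons was 46.6%, against 50.0%.

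The called share differed in size between these classes, with overlapping intervals for most. It was 10.6% for 5′ untranslated exons (27 of 255, 7.38 to 15.0%, 15 with a positive and 12 with a negative difference). This interval lies above the 5.73% of the whole table but holds the 9.35% of 5′ untranslated exons of the same lengths that lack 2 long introns (154 of 1647), and it was the same under the call from any event. Coding exons were called in 60 of 972 cases (6.17%, 4.83 to 7.87%), against 4.58% of the other coding exons of these lengths. The count was 8 of 114 (7.02%) for exons of decay transcripts, against 5.36% elsewhere, and 7 of 184 (3.8%, 1.85 to 7.64%) for other noncoding exons, against 6.67% elsewhere. Among partly coding exons it was 9 of 155 (5.81%) and among unmatched exons 4 of 64 (6.25%). Coding exons with a length divisible by 3 were called in 35 of 435 cases (8.05%, 5.84 to 11%) and the other coding exons in 25 of 537 (4.66%, 3.17 to 6.78%), against 5.58% and 3.79% in exons without 2 long introns. Of the 60 coding exons that were called, 35 (58.3%, 45.7 to 69.9%) had a length divisible by 3, against 43.9% of the coding exons that were not called and 45.5% of coding exons in the table. Over all called exons, coding or not, it was 52 of 115 (45.2%, 36.4 to 54.3%), against 39.1% of those not called. With the call taken from any event, as for the other exons, it was 67 of 972 for coding exons (6.89%, 5.46 to 8.66%) and 9 of 184 for other noncoding exons (4.89%, 2.59 to 9.03%). Under that rule it was 40 of 435 (9.2%, 6.83 to 12.3%) for coding exons with a length divisible by 3 and 27 of 537 (5.03%, 3.48 to 7.22%) for those without. No test of these shares was made, and the number of events per exon was not held equal in them.

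**Figure D3:**
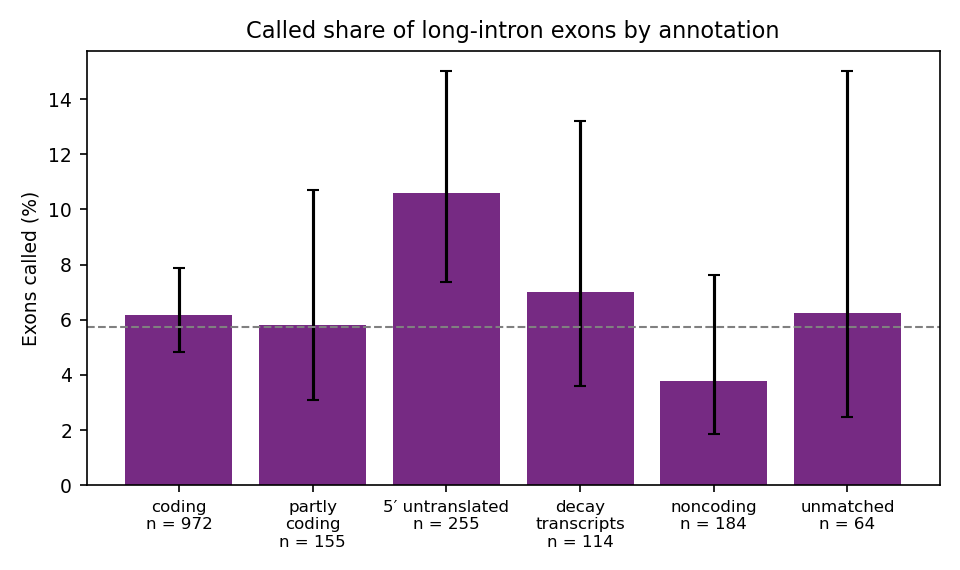
Percent of exons between long introns that were called, by their place in matched GENCODE 29 transcripts, with the number of exons under each bar and Wilson 95% intervals as error bars; the dashed line is the 5.73% of all exons of the table. The 5′ untranslated exons have the highest bar, at 10.6% (9.35% without 2 long introns), and noncoding exons the lowest, at 3.8%.

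By exon length the called share was 8.04% under 100 nt (50 of 622, 6.15 to 10.4%), 6.4% from 100 to under 150 nt (41 of 641, 4.75 to 8.56%), 5.2% from 150 to under 200 nt (17 of 327, 3.27 to 8.17%) and 4.55% from 200 nt (7 of 154, 2.22 to 9.08%), and these intervals overlap. In the other exons of each length it was 5.59%, 5.57%, 4.82% and 5.11%. Where some event had no other listed exon within its introns, 87 of 1176 exons were called from any event (7.4%), against 5.22% of other exons so placed. Where every event had one, 37 of 568 were called (6.51%), against 6.21% of others.

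Among exons higher in the first set, the 12 with the lowest p-values comprised 6 coding exons, 4 that were 5′ untranslated and 2 found only in decay transcripts. GATAD2A, a subunit of the NuRD chromatin remodelling complex, led with a 5′ untranslated exon of 89 nt (chr19:19546940-19547028), whose difference in the authors' deposited table was 0.491 (FDR 9.3e-13). VMP1, an endoplasmic reticulum protein needed to form autophagosomes, had the widest of these differences. Its coding exon of 91 nt (chr17:57814814-57814904) has 0.898 in the authors' deposited table (FDR 1.79e-09) when joined across introns of 29704 and 27427 nt. Joined across introns of 1979 and 1293 nt, the same exon has -0.018 there and did not pass. Its length of 91 nt is not divisible by 3. PIP5K1B, which makes the membrane lipid phosphatidylinositol bisphosphate, had a 5′ untranslated exon of 157 nt (chr9:71357417-71357573) listed at 0.5 in that table (FDR 1.04e-08). EFCAB2 had a coding exon of 112 nt at 0.75 there (FDR 6.16e-07). GIGYF2, an adaptor in translational repression, had a 5′ untranslated exon of 118 nt at 0.512 (FDR 2.26e-06). APBB2, an adaptor that binds the tail of the amyloid precursor protein, had one of 98 nt at 0.63 (FDR 6.07e-06), both as the authors' deposited table lists them. RANBP17 of the importin family and COA1, a mitochondrial assembly factor, had exons that occur only in transcripts marked for decay, listed there at 0.367 and 0.211. C11orf74 (now IFTAP) and KIAA1958 had coding exons of 155 and 84 nt at 0.37 and 0.387 in the same table.

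Of exons with more inclusion in the second set, the 12 with the lowest p-values comprised 7 coding exons, 3 that were 5′ untranslated and 2 found only in noncoding transcripts. NRXN3 appears again here, with a coding exon of 79 nt (chr14:80271455-80271533, introns of 107174 and 55848 nt) at -0.5 in the authors' deposited table (FDR 3.74e-11). PCBP1-AS1, a noncoding gene antisense to PCBP1, had an exon of 123 nt (chr2:70259265-70259387) at -1 there (FDR 1.02e-06), and whether strand was used in counting is not given in the sources used here. FHOD3, a formin that assembles actin filaments, had a coding exon of 65 nt (chr18:33952643-33952707) at -0.627 in that table (FDR 9.5e-06). GAPVD1, a regulator of Rab GTPases on endosomes, had an exon of 122 nt at -0.258 (FDR 5.92e-06), matched only to a noncoding transcript. APP, the amyloid precursor protein, had a coding exon of 57 nt (chr21:27369675-27369731) at -0.185 in the authors' deposited table (FDR 0.000714). LPP, a LIM protein of focal adhesions, had a 5′ untranslated exon of 123 nt at -0.323 there. SLC38A1, a glutamine transporter, and BACH2, a transcriptional repressor of lymphocytes, had 5′ untranslated exons of 123 and 93 nt, listed in that table at -0.131 and -0.325. SLC41A3, of a family of magnesium transporters, had a coding exon of 153 nt at -0.197 in the same table.

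**Figure D4:**
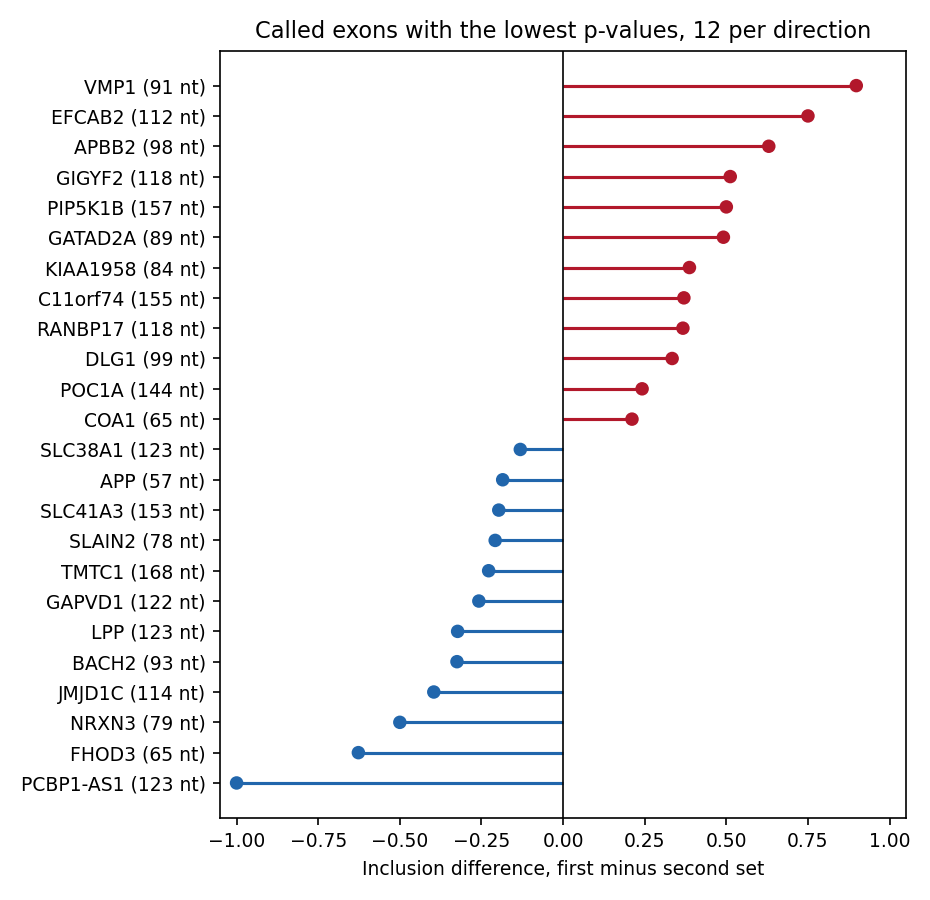
Inclusion difference (x axis, first minus second set, from -1 to 1) as the authors' deposited table lists it, for the 12 called exons with the lowest p-values in each direction, 1 per gene, with the exon length beside each gene. VMP1 reaches 0.898 on the right and PCBP1-AS1 -1 on the left, and the smallest difference is -0.131 in SLC38A1.

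GCATG was sought within the exons, on the transcript strand only, because the introns could not be read in the build of the table. It was present in 173 of 1680 matched exons between long introns (10.3%) and in 3096 of 26810 matched exons of the whole table (11.5%). Among called exons it was present in 9 of 111 (8.11%, 4.32 to 14.7%), and among those not called in 164 of 1569 (10.5%). By direction it was in 2 of 54 exons higher in the first set (3.7%) and in 7 of 57 higher in the second (12.3%). These are descriptions of letters and not of binding. The 9 exons are in TMTC1, CASC4, RPTOR, PQLC1, PCSK5, PCBP1-AS1, TMCC1, SLC38A1 and MKL1, and the first 5 of these were fully coding.

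The 5 coding exons are printed with GCATG in capitals to show where in the exon it falls. TMTC1, an enzyme that adds mannose to proteins in the endoplasmic reticulum, has its exon at chr12:29736340-29736507 on the minus strand. CASC4 has its exon at chr15:44695085-44695252 on the plus strand. RPTOR, the scaffold that brings substrates to the mTOR kinase complex, has its exon at chr17:78765250-78765309 on the plus strand. PQLC1 has its exon at chr18:77679184-77679400 on the minus strand. PCSK5, a protease that activates secreted precursors, has its exon at chr9:78749025-78749128 on the plus strand. Positions are those of the deposited table (hg19), and the letters are from GENCODE 29.
TMTC1: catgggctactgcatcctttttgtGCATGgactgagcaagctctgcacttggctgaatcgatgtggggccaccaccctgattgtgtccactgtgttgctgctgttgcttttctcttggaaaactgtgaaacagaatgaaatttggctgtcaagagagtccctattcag
CASC4: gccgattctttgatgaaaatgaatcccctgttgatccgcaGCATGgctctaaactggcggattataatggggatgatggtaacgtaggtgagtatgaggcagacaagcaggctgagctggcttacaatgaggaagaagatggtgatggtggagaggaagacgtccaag
RPTOR: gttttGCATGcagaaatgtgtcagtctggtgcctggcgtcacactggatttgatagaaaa
PQLC1: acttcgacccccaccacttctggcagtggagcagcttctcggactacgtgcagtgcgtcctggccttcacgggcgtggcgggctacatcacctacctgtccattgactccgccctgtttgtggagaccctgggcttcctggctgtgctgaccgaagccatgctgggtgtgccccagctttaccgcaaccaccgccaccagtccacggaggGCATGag
PCSK5: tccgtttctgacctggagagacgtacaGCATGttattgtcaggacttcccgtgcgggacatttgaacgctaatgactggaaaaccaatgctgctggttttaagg

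In RPTOR the element lies near the 5′ end of the exon and in PQLC1 it ends just before the 3′ end. The authors' deposited table lists -0.228 for TMTC1 (168 nt, FDR 0.00126), -0.281 for CASC4 (168 nt, FDR 0.0148), -0.102 for RPTOR (60 nt, FDR 0.0189) and -0.186 for PCSK5 (104 nt, FDR 0.04). PQLC1 (217 nt) alone among the 5 was higher in the first set, at 0.161 in that table (FDR 0.0304). The TMTC1, CASC4 and RPTOR exons have lengths divisible by 3.

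Genes listed for an exon known as a target of RBFOX proteins held 5 exons between long introns, and none was called. The list names genes and not exons, so these 5 need not be the known target exons, which was not checked. In the authors' deposited table FGFR2, a fibroblast growth factor receptor, had exons of 78 and 170 nt at 0.004 and 0.072. MBNL1, itself a splicing regulator, had 0.04, EPB41, the red cell protein that links spectrin to actin, had -0.005, and ENAH, an actin regulator, had 0.004 in that table. The lowest of the 5 deposited rMATS p-values was 0.264, so 0 were under 0.05 before adjustment. Over all exons of these genes, whatever their introns, 7.79% were called.

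Regulators of small GTPases, the switches of membrane traffic and cell shape, held 59 exons between long introns, of which 4 were called (6.78%, against 6.76% for the same genes in the whole table). All 4 were higher in the second set. Beside GAPVD1 they were ARHGAP22, a Rac-inactivating protein, TBC1D15, a Rab-inactivating protein, and ARHGEF7, which activates Rac and CDC42. The authors' deposited table lists -0.42 for ARHGAP22 (129 nt, coding), -0.428 for TBC1D15 (92 nt) and -0.221 for ARHGEF7 (85 nt). TBC1D15 and ARHGEF7 were named after their values were seen.

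Chromatin and transcription factors had the most called exons of the lists, 12 of 139 (8.63%, against 6.5% for those genes in the whole table), 6 in each direction. Higher in the first set were exons of FOXN2, FOXP2, ZNF573, EZH2, TCF7L2 and KATNBL1. EZH2 is the histone methyltransferase of Polycomb, and FOXP2 is a forkhead factor. KATNBL1 entered the list by its symbol only, being related to the microtubule-severing enzyme katanin. The authors' deposited table gives differences between 0.127 (TCF7L2, a Wnt effector) and 0.402 (FOXP2) for these 6. Paired with other neighbours, the FOXP2 and EZH2 exons had -0.171 and -0.084 there, neither of which was called. Higher in the second set were exons of JMJD1C, ZNF385B, RERE and TET2, and 2 overlapping exons of PHF3. The widest was in RERE, a nuclear corepressor, at -0.666 in that table, and TET2, which oxidises methylcytosine, had -0.322. Apart from JMJD1C and FOXN2, these genes were named after their values were seen. The symbols of the list missed other genes of this kind. GATAD2A, with 2 called exons higher in the first set, and BACH2, called higher in the second, are examples and not a full account of those missed. The 12 called exons and their even split cover only the genes that the symbols caught.

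Kinases had 3 called exons of 64 (4.69%, against 6.12%). The 5′ untranslated exon of MAPK8, the stress kinase JNK, had 0.48 (69 nt, FDR 0.000691) in the authors' deposited table. RNA-binding proteins had 3 of 46 (6.52%, against 5.93%), all higher in the second set. CELF1, a splicing regulator named after its value was seen, had -0.117 in that table, and PCBP1-AS1 entered that list by its symbol although it is noncoding. Ubiquitin enzymes picked by symbol had 2 of 59 (3.39%, against 5.41%), both higher in the second set. The symbols missed RFWD2 (now COP1), called at 0.191 in that table, and ANAPC10, called at -0.163, both named after their values were seen. The 2 of the list were KLHL13 (-0.451), a substrate adaptor of a ubiquitin ligase, and MARCH8 (-0.194), now MARCHF8, a membrane-bound ubiquitin ligase, as the authors' deposited table lists them.

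Membrane trafficking genes had 2 called exons of 52 (3.85%, against 5.07%), both higher in the first set. The authors' deposited table gives 0.304 for OSBPL6, a lipid transfer protein, and 0.291 for RAB6B, a Golgi GTPase. The Rab regulators GAPVD1 and TBC1D15, called higher in the second set, were counted with the regulators of small GTPases and not here. Channels and transporters had 4 of 55 (7.27%, against 6.24%), made up of SLC38A1, 2 overlapping exons of SLC41A3 and an exon of TMCC1. TMCC1 entered by its symbol and is an endoplasmic reticulum protein, not a channel, with 0.179 in that table. Adhesion and axon guidance genes had 2 of 33 (6.06%, against 7.07%), in NRXN3 and DLG1, the actin and septin cytoskeleton 1 of 16 (6.25%, against 7.49%), in FHOD3. Microtubule and centrosome genes picked by symbol had 0 of 18, against 5.96% of their exons in the whole table. The symbols of this list missed POC1A, SLAIN2 and PIBF1, which had called exons. Exons of genes in no list were called in 82 of 1203 cases (6.82%).

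Each exon was counted under the gene of the event that represents it, which gave 1198 genes, since 5 exons were listed under more than 1 gene. Of these genes, 834 had a single exon between long introns and 364 had more than 1. In 8 genes more than 1 such exon was called. GATAD2A, GIGYF2, C11orf74 and PIBF1, a centrosomal protein, each had 2 exons higher in the first set, and PHF3 and SLC41A3 had overlapping pairs that share a splice site, higher in the second. In PIBF1 the exons of 131 and 85 nt had 0.359 and 0.252 in the authors' deposited table. Both exons were read there against the same distant neighbours, so their calls share the junction that skips both. Read against each other, across an intron of 8186 nt, they had 0.059 and -0.062, neither called. The C11orf74 exons of 155 and 67 nt showed the like pattern, also with a shared skipping junction. They had 0.37 and 0.503 in that table against distant neighbours and -0.045 and -0.036 against each other across 2612 nt.

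LPP and TYW1B had called exons of opposite direction. In LPP the 5′ untranslated exon of 123 nt had -0.323 in the authors' deposited table and an exon of 57 nt (chr3:188059451-188059507) had 0.267 (FDR 0.0259). That event of the 57-nt exon has the 123-nt exon as its upstream partner, 116135 nt away, and both events end at the same downstream exon. The junction from the 123-nt exon to that downstream exon counts as inclusion of the 123-nt exon and as skipping of the 57-nt exon. The opposite signs in LPP are therefore not independent. The 57-nt exon, paired with another upstream exon 187641 nt away, had -0.247 there without being called. In TYW1B neighbouring exons of 110 and 119 nt had 0.629 and -0.278 in that table. They were read against each other across 15560 nt, so these values also share a junction. TYW1B has a close copy, TYW1, and POM121 and HIATL2 among the called genes have close copies too, so how reads were shared between copies is uncertain.

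A few genes had many exons between long introns. RPTOR had 7 of them, with differences in the authors' deposited table from -0.102 to 0.037, and only the 60-nt exon was called. RANBP17 had 6, all with positive differences, from 0.115 to 0.367, and 1 was called. TBC1D5, a regulator of Rab7, also had 6, whose differences ran from -1 to 1 in that table without a call. PTK2, the focal adhesion kinase, had 9, of which an exon of 63 nt was called at -0.103 (FDR 0.0475 in the authors' deposited table). The other 8 exons of PTK2 ran from -0.129 to 0.382 in that table.

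The difference listed for an exon depended on the neighbours it was paired with. Of the called exons, 46 were listed in more than 1 event. All 115 together had 184 events, of which 117 passed both limits, all in the direction of the exon's call. Of the 67 that did not pass, 42 had the same sign and 25 the opposite. The 89-nt exon of GATAD2A had 0.491 when joined across introns of 49992 and 29120 nt. Its 5 other events in the authors' deposited table, none of which passed, ran from -0.5 to 0.594, and 4 of them were negative. The 57-nt exon of APP had -0.185 where the upstream partner was 24424 nt away and -0.075 (FDR 0.0873) where it was 2598 nt away, in that table. The 118-nt exon of GIGYF2 had 0.512 with an upstream partner 27181 nt away. With upstream partners 21084 and 1915 nt away it had 0.026 and 0.055 in that table, neither of which passed. Of all exons between long introns, 158 also had an event with a shorter intron, and 9 passed only in such an event and were not counted as called.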

How the data were processed

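RNA-seq of 4 HEK293T clones, 2 WT and 2 RBFOX2 knockout by their titles, was deposited as 1 rMATS table of skipped exons from junction reads. Per the submitters' processing notes, STAR 2.7.3a and the build hg19 were used. The rMATS version and annotation are not given in the sources used here. The inclusion difference, p-value and FDR are the authors' deposited values. Benjamini-Hochberg adjustment of those p-values over the 31408 events returned the deposited FDR (largest gap 1.11e-16). The 6 columns of values per library carry only a set number, which matches no label, and were not used. Depth, inclusion per library and spread between clones are therefore not reported. The difference was read as first minus second set, the rMATS convention. The count model planned for the library columns was not run.

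Events with the same exon position and strand were merged, and starts were made 1-based. An exon takes the value of its called event with the lowest p-value, or else of its event with the lowest p-value. In the exon counts of the whole table any event could make the call. Exons were matched to GENCODE 29 by gene identifier, exon length and both intron lengths (1413 exons), or 1 intron where that was unique (267). Any event of an exon could give the match, so the matched introns need not be the long ones. For example, the C11orf74 exons of 155 and 67 nt are exons 3 and 4 of the same matched transcript, with 2612 nt between them. Only 13 of 1680 lay at the same positions in GRCh38, so no coordinate was taken from it. Current symbols were found for 1184 of 1198 member genes. Named exons are, 1 per gene, for each direction the 12 called exons of lowest p-value, all exons of the RBFOX list, the 3 with the longest shorter intron, the 3 nearest to the limit on each side, and up to 2 called per list of 11. A single exon chosen by the rule is not reported here. Any other gene was named with its values in view. The lists are patterns of gene symbols, which took in some genes of another kind and missed some of the kind named. Members and lists were chosen with earlier results of these data known. Intervals are Wilson 95% intervals. Software comprised matplotlib 3.10.9, scipy 1.17.1, numpy 2.4.6, pandas 2.3.3 and Python 3.11.15.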

Additional observations from a re-analysis of the deposited data

How the results depend on the processing

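No paired analysis was possible because the columns per library carry no replicate number or genotype and were not used. Leaving out each clone in turn was not run, since it needs the same columns. The number of called exons was 65 at an FDR limit of 0.01 and 18 with a Bonferroni limit. It was 231 of 3692 (6.26%) with both introns at least 5000 nt and 43 of 670 (6.42%) with both at least 20000 nt, where the construction changes how many exons are counted. Without exons that had another listed exon within their introns, an alternative chosen after seeing the data, it was 67. Other limits gave between 85 and 136. The share of called exons higher in the first set was 72.2% with the Bonferroni limit. The median absolute difference of called exons was 0.342 at an FDR limit of 0.01, 0.357 with a minimum difference of 0.2 and 0.439 with the Bonferroni limit. The share of called exons with a length divisible by 3 was 33.3% with the Bonferroni limit. The cause of these moves beyond fewer called exons was not tested. Of 33 called exons chosen by the naming rule, 30 were still called at an FDR limit of 0.01, 28 with a minimum difference of 0.2 and 17 with the Bonferroni limit, and these limits leave the deposited differences as they are. The planned search for GCATG in flanking introns was not run, since no genome sequence of hg19 was used here.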
